A study of Mus musculus with 8 samples.

Results

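The enzymes that write, maintain and remove cytosine methylation were followed as 9 genes, Dnmt1, Uhrf1, Dnmt3a, Dnmt3b, Dnmt3l, Tet1, Tet2, Tet3 and Tdg, in mouse pluripotent stem cells. They were chosen by symbol, and all 9 were found in each of the 8 libraries, out of 23065 gene symbols named in any library. All 9 reached the level required for testing, 1 FPKM (fragments scaled to transcript length and to library size) in at least 2 libraries. RNA had been sequenced from 2 libraries of each of 4 groups.

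Dnd1-KD cells are ES (embryonic stem) cells on the 129/Ola background with a knockdown of Dnd1, whose RNA-binding protein acts in germ cells. CDGC1 and CDGC6 are a pair of stem cell lines made from nascent teratoma cells of newborn testis, homozygous for the ter mutation (Dnd1ter/ter) and carrying the Oct4deltaPE-GFP reporter on 129Sv. The control is the wild-type ES cell line E14tg2a, on 129/Ola. Dnd1-KD and control cells were at passages 10 to 12, and CDGC1 and CDGC6 at passages 15 to 18. All 4 groups were cultured with serum and LIF, a cytokine that sustains mouse ES cells. Between a derived line and the control, the Dnd1 genotype, the reporter, the strain, the origin and the passage all differ, so their parts in a difference cannot be told apart. CDGC1 and CDGC6 are 1 line each. Whether the 2 libraries of each group are separate cultures is not stated in the labels, so p-values cover the spread between libraries alone, possibly a technical one.

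DNMT1 copies methylation onto the new strand after replication, and UHRF1 brings it to hemimethylated CG sites. DNMT3A and DNMT3B set new methylation, and DNMT3L, which has no activity of its own, stimulates both. TET enzymes oxidise 5-methylcytosine, TDG cuts out the more oxidised forms, and base excision repair then puts back an unmodified cytosine. Of the mouse pluripotent states, the naive state (like the early epiblast) is known for high Tet2. The primed state (like the later epiblast) is known for high methylation and high Dnmt3b.

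The promoters of Dnmt3l, Tet1 and Tet2 are shown because these 3 genes had the largest differences between CDGC1 and the control. Each window runs from 250 bases before the first RefSeq start to 50 bases from it, on build GRCm38.p6 and in the direction of the gene, with CG dinucleotides, the bases that these enzymes act on, in capitals. Dnmt3l lies on chr10:78042037-78042336 (plus strand), Tet1 on chr10:62887275-62887574 (minus strand) and Tet2 on chr3:133544341-133544640 (minus strand).
Dnmt3l: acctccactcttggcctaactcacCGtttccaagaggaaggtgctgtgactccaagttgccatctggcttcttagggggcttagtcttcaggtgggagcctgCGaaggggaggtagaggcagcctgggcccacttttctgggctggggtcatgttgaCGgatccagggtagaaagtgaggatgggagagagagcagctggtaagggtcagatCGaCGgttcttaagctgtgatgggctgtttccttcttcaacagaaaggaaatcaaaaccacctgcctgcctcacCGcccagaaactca
Tet1: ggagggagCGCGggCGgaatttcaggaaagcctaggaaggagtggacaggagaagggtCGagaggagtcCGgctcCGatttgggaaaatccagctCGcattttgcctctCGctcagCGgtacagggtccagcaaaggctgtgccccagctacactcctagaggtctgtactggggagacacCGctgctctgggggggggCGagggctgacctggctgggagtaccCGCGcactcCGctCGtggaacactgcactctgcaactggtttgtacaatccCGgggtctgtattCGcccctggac
Tet2: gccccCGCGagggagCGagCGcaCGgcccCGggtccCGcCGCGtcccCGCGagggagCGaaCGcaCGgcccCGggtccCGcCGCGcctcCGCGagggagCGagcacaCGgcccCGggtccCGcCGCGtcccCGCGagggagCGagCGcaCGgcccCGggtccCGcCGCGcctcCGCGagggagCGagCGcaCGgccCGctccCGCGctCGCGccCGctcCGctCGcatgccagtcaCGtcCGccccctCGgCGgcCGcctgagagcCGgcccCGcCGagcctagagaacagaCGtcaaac

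The 3 windows hold very different numbers of CG dinucleotides. Dnmt3l has 6, close to the median of 7 over 32851 RefSeq promoters of the same length (quartiles 3 and 20). Tet1 has 17. Tet2 has 57, more than 99.85% of promoters. Of the other members' first windows, Dnmt1 has 2, Uhrf1 12, Tet3 22, Tdg 26, Dnmt3b 30 and Dnmt3a 46. Windows at later RefSeq starts differ, with 12 and 33 for Dnmt1 and 33 for Uhrf1. Dnmt3a has 47 and 18 there, and Dnmt3l 4 and 3. Which start these cells use was not tested. For Tet1, the span assembled by the authors began 5.55 to 5.72 kb upstream of the first RefSeq start in Dnd1-KD, CDGC6 and control. It began within the window shown in CDGC1 alone, where Tet1 was lowest. The CG count and the motif search of Tet1 thus do not cover that upstream end. Spans of Tet3, Dnmt3b and Dnmt3a also began upstream of their first windows in some libraries. The letters AAGGTCA, an ESRRB motif, and ATGCAAAT, an octamer motif of OCT4, were searched on both strands, without overlap between them. No window of the 9 genes held either, against 4.72% and 1.74% of all promoters, which says only that these letters are absent from these windows. No methylation was measured in this study.

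The libraries implied 10.7 to 18.0 M fragments each, and named entries took 11.4% to 19.9% of each library's total FPKM. Behind a member's value stood 444 to 5911 implied fragments, except Dnmt3l in CDGC1 (29.6 and 47.0) and Tet2 in CDGC1 (61.1 and 98.5), and these cover counting error only. All 6 pluripotency markers (among them Pou5f1, Sox2 and Nanog) were at 1 FPKM or more in every library. Their summed FPKM was 960 and 809 in Dnd1-KD cells, 1475 and 1505 in CDGC1, 1776 and 2041 in CDGC6, and 1614 and 1607 in the control, and all 6 were lower in both Dnd1-KD libraries than in either control library. Pou5f1, the gene of OCT4, was at 531 and 457 FPKM in Dnd1-KD cells against 944 and 934 in the control, and Nanog at 92.2 and 60.5 against 133.9 and 127.7. These markers moved with the falls of Dnmt1, Uhrf1, Dnmt3b, Dnmt3l and Tet1 in Dnd1-KD cells, and their part in them was not tested. The knockdown of Dnd1 could not be checked, because Dnd1 shares 1 entry with its neighbour Hars, at 57.6 and 53.9 FPKM in Dnd1-KD cells, 81.4 and 71.5 in CDGC1, 60.1 and 63.4 in CDGC6, and 65.8 and 65.0 in the control. Hprt, which E14tg2a is known to lack, was at 0.533 and 0.642 FPKM in Dnd1-KD cells and 0.359 and 0.455 in the control, against 121 to 133 in CDGC1 and CDGC6.

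Naive markers moved with the groups and stand beside all results on CDGC1. Their summed FPKM (7 genes, Esrrb, Zfp42, Klf4, Klf2, Tfcp2l1, Tbx3 and Nr0b1) was 451.5 and 353 in Dnd1-KD cells, 5.54 and 6.16 in CDGC1, 405 and 548 in CDGC6, and 592.5 and 623.5 in the control. In CDGC1, Esrrb was at 0.211 and 0.140 and Zfp42 at 0.0220 and 0. Summed FPKM of the 5 primed or formative markers (Fgf5, Otx2, Pou3f1, Zic2, Nodal) was 55.5 and 46.0 in Dnd1-KD cells, 287.9 and 322.8 in CDGC1, 167.6 and 146.6 in CDGC6, and 75.8 and 71.5 in the control. Of 8 fibroblast or feeder markers, the sum was 10.0 and 10.3 in Dnd1-KD cells, 35.1 and 33.6 in CDGC1, 24.7 and 32.3 in CDGC6, and 7.001 and 7.664 in the control. At 1 FPKM or more in both libraries were 3 of them in Dnd1-KD cells, 5 in CDGC1, 5 in CDGC6 and 2 in the control, and Lum was at 0 in Dnd1-KD and CDGC6. The 8 testis somatic markers summed to 7.82 to 13.5 FPKM in every library, with Hsd3b1 at 0 in all but CDGC1 library 1. Insl3, at 3.08 to 10.9 FPKM, was the largest part in every library. Other markers moved both ways in CDGC1 against control. Inhba was at 2.73 and 2.63 FPKM against 0.394 and 0.440, and Gata4 at 0.176 and 0.258 against 0.724 and 0.693. A like sum thus does not show like amounts of such cells. These are bulk samples, so fewer cells of a type and less RNA per cell cannot be told apart, and the part of such markers in the results was not tested.

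**Figure D1:**
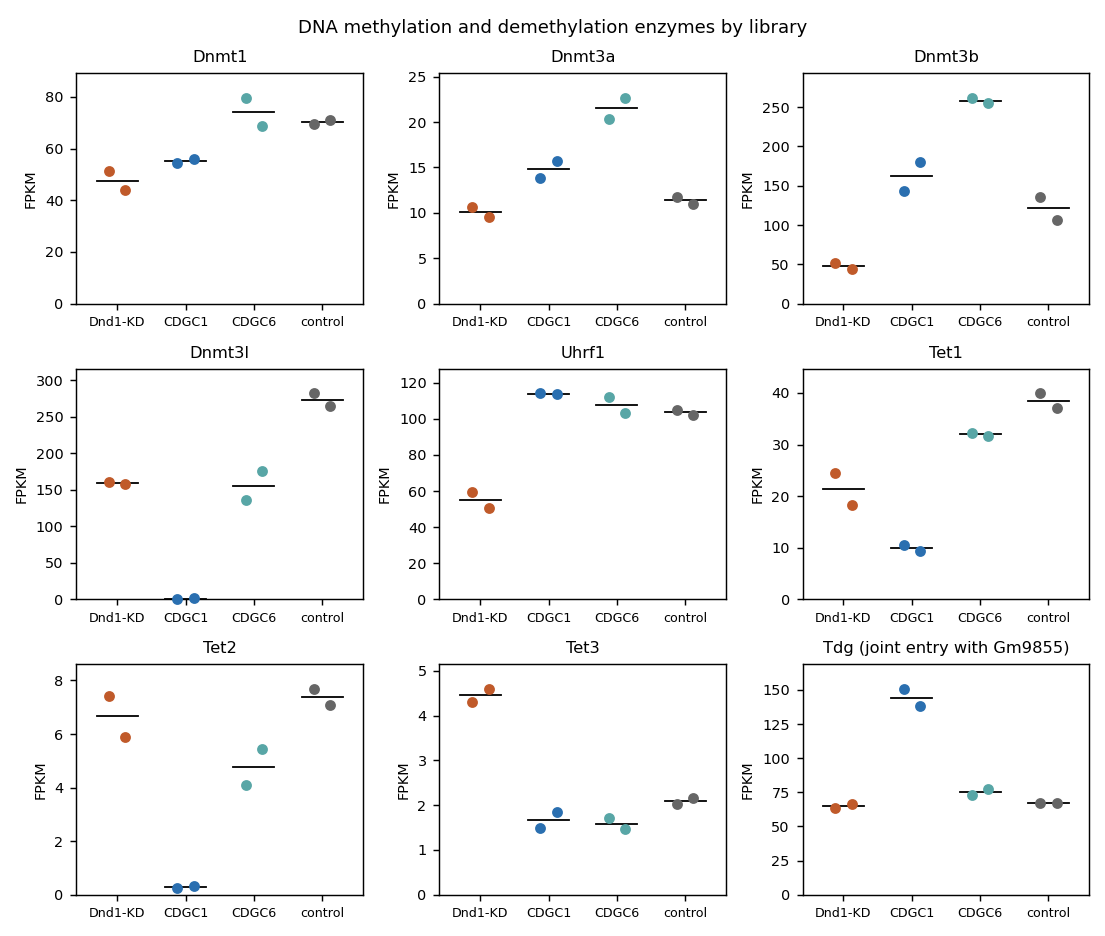
Level of each of the 9 genes in each library, in FPKM on a linear axis from 0 that differs between panels, with groups from left to right as Dnd1-KD, CDGC1, CDGC6 and control. Points are libraries and lines are group means of 2. Dnmt3l is at 0.883 and 1.10 FPKM in CDGC1 and at 135.4 to 281.9 in the 6 other libraries, and Tet2 is at 0.250 and 0.312 in CDGC1 and at 4.09 to 7.68 elsewhere.

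Maintenance of methylation was first compared. In Dnd1-KD cells both genes fell. In CDGC1 Dnmt1 fell by less and Uhrf1 was not called, and neither was called in CDGC6. Differences are given as the difference in mean log2(FPKM + 1) ± SE from a limma fit over all 8 libraries, with p adjusted by Benjamini-Hochberg over 11905 tested units (a gene, or genes that share an entry) and a threshold of 0.05. At this threshold 36.2% of all units were called in Dnd1-KD cells against control, 50.5% in CDGC1 against control, 18.6% in CDGC6 against control and 47.1% in CDGC1 against CDGC6.

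Uhrf1 was at 59.4 and 50.8 FPKM in Dnd1-KD cells, 114.1 and 114.0 in CDGC1, 112.1 and 103.5 in CDGC6, and 105.2 and 102.2 in the control. Both Dnd1-KD libraries were below all others, which lay close together. The fall in Dnd1-KD cells was −0.90 ± 0.09 (55.1 ± 6.08 against 104 ± 2.10 FPKM, SD, n = 2 each, limma adjusted p = 0.00175). In CDGC1 the difference from control was 0.14 ± 0.09 (adjusted p = 0.242), and in CDGC6 it was 0.05 ± 0.09 (0.690).

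Dnmt1 was at 51.2 and 43.9 FPKM in Dnd1-KD cells, 54.4 and 55.9 in CDGC1, 79.6 and 68.7 in CDGC6, and 69.5 and 71.0 in the control. Its libraries overlapped between CDGC6 and control and in no other comparison. It fell in Dnd1-KD cells by 0.56 ± 0.10 on the log2 scale (limma adjusted p = 0.00957) and in CDGC1 by 0.34 ± 0.10 (0.0309), and was lower in CDGC1 than in CDGC6 (−0.42 ± 0.10, 0.0167). In CDGC6 the difference from control was 0.07 ± 0.10 (adjusted p = 0.642). Each of the 3 calls was lost with 1 library left out. The Dnd1-KD call was lost without control library 1, control library 2 or Dnd1-KD library 2 (limma adjusted p = 0.0579, 0.0591 and 0.0511). In CDGC1 against control it was lost without any of the 4 libraries compared (0.072 to 0.128), and in CDGC1 against CDGC6 without library 1 of either line (0.065 and 0.0717). Because the genes did not move together, the ratio of Uhrf1 to Dnmt1 in FPKM was 1.16 in both Dnd1-KD libraries, 2.10 and 2.04 in CDGC1, 1.41 and 1.51 in CDGC6, and 1.51 and 1.44 in the control.

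The de novo enzymes followed. Dnmt3b fell in Dnd1-KD cells and rose in CDGC6. Dnmt3l fell in all 3 groups against control, with CDGC1 near the floor. Dnmt3a rose in CDGC1 and CDGC6 and was not called in Dnd1-KD cells.

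Dnmt3b was at 52.3 and 43.7 FPKM in Dnd1-KD cells, 143.6 and 180.1 in CDGC1, 261.6 and 254.9 in CDGC6, and 136.2 and 106.4 in the control. The libraries of the 4 groups form 4 separate ranges, lowest in Dnd1-KD cells and highest in CDGC6. The difference from control was −1.31 ± 0.16 in Dnd1-KD cells (48.0 ± 6.05 against 121 ± 21.0 FPKM, SD, n = 2 each, limma adjusted p = 0.00313). In CDGC6 it was 1.09 ± 0.16 (258 ± 4.67 FPKM, adjusted p = 0.00992), a 2.13-fold higher mean. In CDGC1 it was 0.42 ± 0.16 and was not called (0.0763), though it passed with median-ratio scaling (0.0464), without CDGC1 library 1 (0.0489) and without control library 1 (0.0484), over a range of 0.0464 to 0.336 among 20 alternatives. CDGC1 was below CDGC6 by −0.68 ± 0.16 (0.0157). The call in CDGC6 was lost without control library 2 (0.0535), and that between the lines without CDGC1 library 1, CDGC6 library 1 or CDGC6 library 2 (0.0622 to 0.0726). GENCODE vM21 places Dnmt3b at chr2:153649450-153687730 (plus strand), where it shares 837 bases with the antisense gene Dnmt3bos. The library kit named in the labels does not mark strand, so reads of the 2 genes cannot be told apart there.

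Dnmt3l was at 160.6 and 157.7 FPKM in Dnd1-KD cells, 0.883 and 1.10 in CDGC1, 135.4 and 175.9 in CDGC6, and 281.9 and 264.1 in the control. CDGC1 stood apart from the 6 other libraries, and the control libraries were above all others. The mean in CDGC1 was 0.990 ± 0.151 FPKM against 273 ± 12.6 in the control (SD, n = 2 each), so that the control was 276-fold higher, and the difference was −7.11 ± 0.13 (limma adjusted p = 1.55e-06). It was −6.29 ± 0.13 against CDGC6 (3.14e-06), and both calls held under all 20 alternatives. The other differences from control were smaller, −0.77 ± 0.13 in Dnd1-KD cells (159 ± 2.04 FPKM, adjusted p = 0.00756) and −0.82 ± 0.13 in CDGC6 (156 ± 28.7 FPKM, 0.0118). These 2 calls rested on the control libraries. The first was lost without control library 1 (0.0547), and the second without control library 1 or 2 (0.0826 and 0.0623). Dnmt3l (chr10:78041947-78063622, plus strand) shares 1664 bases with Aire, the gene of a transcription factor of the thymus, on the opposite strand. Aire was at 1.78 and 0.663 FPKM in Dnd1-KD cells, listed at 0 in both CDGC1 libraries, at 13.6 and 13.4 in CDGC6, and at 4.55 and 5.93 in the control, and how reads of the shared stretch were divided was not tested.

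Dnmt3a was at 10.6 and 9.60 FPKM in Dnd1-KD cells, 13.9 and 15.7 in CDGC1, 20.3 and 22.7 in CDGC6, and 11.8 and 11.03 in the control. Both derived lines were above control, CDGC6 the more so. The differences from control were −0.16 ± 0.10 in Dnd1-KD cells (limma adjusted p = 0.275), 0.35 ± 0.10 in CDGC1 (0.0295) and 0.86 ± 0.10 in CDGC6 (21.5 ± 1.64 against 11.4 ± 0.513 FPKM, SD, n = 2 each, 0.00499). CDGC1 was below CDGC6 by −0.51 ± 0.10 (0.00813). The call in CDGC1 against control was lost without CDGC1 library 2, control library 1 or control library 2 (0.104, 0.0867 and 0.153), and the calls in CDGC6 and between the lines held under all 20 alternatives. Dnmt3a shares 2952 bases with the antisense gene Dnmt3aos.

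These changes altered the make-up of the DNMT3 family, whose members are compared here in FPKM, which is scaled to transcript length. Summed FPKM of Dnmt3a, Dnmt3b and Dnmt3l was 223.5 and 211 in Dnd1-KD cells, 158.4 and 197 in CDGC1, 417 and 453 in CDGC6, and 429.8 and 381.5 in the control. Dnmt3l made up 71.9% and 74.7% of it in Dnd1-KD cells, 0.56% in both CDGC1 libraries, 32.4% and 38.8% in CDGC6, and 65.6% and 69.2% in the control. The cofactor was thus the most abundant of the 3 transcripts in Dnd1-KD and control cells, and Dnmt3b was in CDGC1 and CDGC6. The ratio of Dnmt3b to Dnmt3a was 4.91 and 4.56 in Dnd1-KD cells, 10.3 and 11.4 in CDGC1, 12.9 and 11.3 in CDGC6, and 11.6 and 9.65 in the control. The Dnd1-KD libraries were the only ones of the 8 with a ratio under 9.

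**Figure D2:**
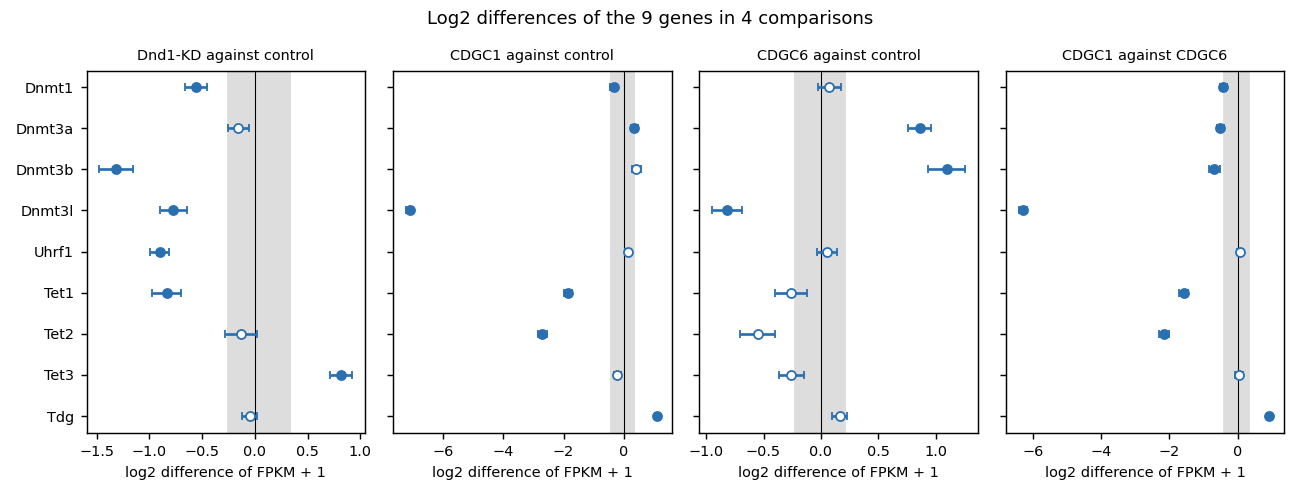
Difference in mean log2(FPKM + 1) of each of the 9 genes in the 4 comparisons, with the SE of the limma fit as error bars. Filled points are called at an adjusted p under 0.05, open points are not, the grey band spans the quartiles of all units tested, and axes differ between panels. Dnmt3l lies farthest below 0 in both comparisons of CDGC1 (−7.11 against control, −6.29 against CDGC6), followed by Tet2 (−2.71 and −2.16). Tdg in CDGC1 and Dnmt3b in CDGC6 (both 1.09 against control) lie farthest above 0.

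The TET enzymes differed most in CDGC1, where Tet1 and Tet2 fell. In Dnd1-KD cells Tet1 fell and Tet3 rose. None of the 3 was called in CDGC6 against control.

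Tet1 was at 24.4 and 18.2 FPKM in Dnd1-KD cells, 10.5 and 9.44 in CDGC1, 32.2 and 31.7 in CDGC6, and 39.9 and 37.1 in the control. The 4 groups do not overlap, with CDGC1 lowest. The difference from control was −1.85 ± 0.14 in CDGC1 (9.99 ± 0.781 against 38.5 ± 1.97 FPKM, SD, n = 2 each, limma adjusted p = 0.000142), so that the control was 3.86-fold higher. CDGC1 was also below CDGC6 (−1.59 ± 0.14, 0.000338), and both calls held under all 20 alternatives. In Dnd1-KD cells the difference from control was −0.84 ± 0.14 (21.3 ± 4.36 FPKM, 0.00725), which was lost without control library 1 (0.0537). In CDGC6 it was −0.26 ± 0.14 (0.230). The authors' tables mark the estimate in control library 1 as failed and give no usable interval in CDGC1 library 1. With such values set to missing, an alternative chosen after seeing the data, the Dnd1-KD difference was −0.79 (0.0409), over a range of 0.00530 to 0.0537 among 20 alternatives.

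Tet2 was at 7.44 and 5.90 FPKM in Dnd1-KD cells, 0.250 and 0.312 in CDGC1, 4.09 and 5.44 in CDGC6, and 7.68 and 7.09 in the control. Both CDGC1 libraries lay far below the rest. The difference from control in CDGC1 was −2.71 ± 0.15 (0.281 ± 0.0437 against 7.38 ± 0.421 FPKM, SD, n = 2 each, limma adjusted p = 5.12e-05). On FPKM itself the control was 26.2-fold higher, since a pseudocount of 1 shrinks the log2 difference of a low gene. CDGC1 was below CDGC6 by −2.16 ± 0.15 (0.000156), and both calls held under all 20 alternatives. The difference in CDGC6 against control, −0.55 ± 0.15, did not pass (0.0546) but did with a pseudocount of 5 (0.0478) and without CDGC6 library 2 (0.0489), over a range of 0.0478 to 0.234 among 20 alternatives. In Dnd1-KD cells it was −0.13 ± 0.15 (0.529).

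Tet3 was at 4.31 and 4.60 FPKM in Dnd1-KD cells, 1.49 and 1.84 in CDGC1, 1.72 and 1.46 in CDGC6, and 2.03 and 2.15 in the control. Only the Dnd1-KD libraries were above 4 FPKM. The difference from control there was 0.82 ± 0.11 (4.46 ± 0.200 against 2.09 ± 0.0846 FPKM, SD, n = 2 each, limma adjusted p = 0.00359), a 2.13-fold higher mean. This call held under all 19 alternatives that kept Tet3, which a filter of 5 FPKM removes. The differences were −0.22 ± 0.11 in CDGC1 against control (0.139), −0.26 ± 0.11 in CDGC6 against control (0.142) and 0.04 ± 0.11 between the lines (0.782). With quantile normalization the difference in CDGC6 against control passed (0.0416, in a range of 0.0416 to 0.430 among 19 alternatives), and so did that between the lines, at 0.33 (0.0201, in a range of 0.0201 to 0.864). Tet3 shares 6568 bases with the opposite-strand gene B230319C09Rik and 3553 with 5430434F05Rik on its own strand.

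Summed over the 3 genes, TET transcripts were at 36.2 and 28.7 FPKM in Dnd1-KD cells, 12.3 and 11.6 in CDGC1, 38.0 and 38.6 in CDGC6, and 49.6 and 46.4 in the control. The largest share was that of Tet1 in every library, 63.5% to 85.9%. Tet2 made up 20.6% and 20.5% in Dnd1-KD cells, 2.04% and 2.69% in CDGC1, 10.8% and 14.1% in CDGC6, and 15.5% and 15.3% in the control. The share of Tet3 was 11.9% and 16.0% in Dnd1-KD cells, 12.1% and 15.9% in CDGC1, 4.52% and 3.78% in CDGC6, and 4.10% and 4.64% in the control. Tet3 thus took like shares in Dnd1-KD and CDGC1, at a higher level in Dnd1-KD and with less Tet2 in CDGC1. Set against each other, Dnmt3a and Dnmt3b together were 1.74 and 1.86 times the TET sum in Dnd1-KD cells, 12.8 and 16.9 times in CDGC1, 7.42 and 7.19 times in CDGC6, and 2.98 and 2.53 times in the control. These ratios were computed after the levels were known and have no test.

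**Figure D3:**
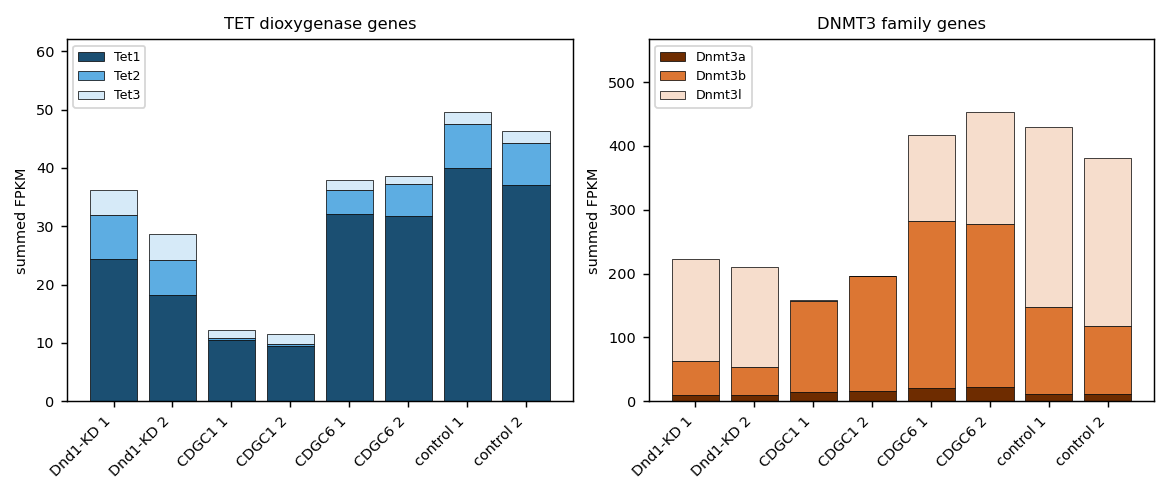
Summed FPKM of the TET genes (left) and the DNMT3 genes (right) in each library, stacked by gene, with groups from left to right as Dnd1-KD, CDGC1, CDGC6 and control. Dnmt3l is 0.56% of the DNMT3 sum in both CDGC1 libraries, and the TET sum is 12.3 and 11.6 there against 28.7 to 49.6 elsewhere.

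The span that the authors' tables give for a gene also differed between libraries, since transcripts were assembled in each library. For Tet1 (minus strand), the entry began 5.55 to 5.72 kb upstream of the first RefSeq start (chromosome 10, position 62887324) in the 6 libraries of Dnd1-KD, CDGC6 and control. These ends, at positions 62892871 to 62893048, lie within 17 to 115 bases of the start of an annotated GENCODE transcript. In both CDGC1 libraries the entry began 72 and 78 bases upstream of the RefSeq start, so the upstream end was not part of the entry there. The Tet3 entry reached 15.2 and 14.7 kb upstream of its RefSeq start in the Dnd1-KD libraries, 439 and 11 bases from the start of another annotated transcript. It reached 13.4 kb upstream in CDGC1 library 2 and 13.1 kb in CDGC6 library 2, and began at the RefSeq start in library 1 of both lines and in both control libraries. Both Dnd1-KD libraries, where Tet3 was highest, thus held the longest Tet3 spans. Dnmt3b began 7.39 and 2.06 kb upstream in the control libraries and at the RefSeq start in the 6 others. A span is not a level. The assembly needs enough fragments to reach an upstream exon, and the part of the gene's level and of depth in these spans was not tested.

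**Figure D4:**
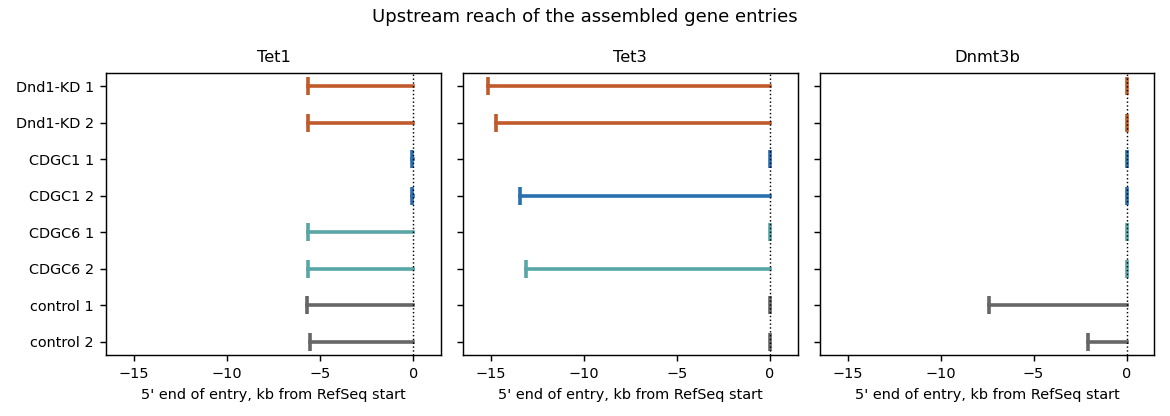
Upstream end of the entries of Tet1, Tet3 and Dnmt3b in each library, in kb from the first RefSeq start at 0, with upstream to the left. Tet1 entries reach 5.55 kb or more upstream in 6 libraries and under 0.1 kb in both CDGC1 libraries, and Tet3 entries reach farthest, 15.2 and 14.7 kb, in the Dnd1-KD libraries.

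Tdg, the glycosylase that acts after the TET enzymes, was at 63.3 and 66.4 FPKM in Dnd1-KD cells, 150.7 and 137.9 in CDGC1, 73.1 and 77.4 in CDGC6, and 67.3 and 67.0 in the control. CDGC1 was above all other libraries. The difference from control was 1.09 ± 0.07 in CDGC1 (144 ± 9.02 against 67.2 ± 0.207 FPKM, SD, n = 2 each, limma adjusted p = 7.84e-05). CDGC1 was also above CDGC6 (0.93 ± 0.07, 0.000189), and both calls held under all 20 alternatives. In CDGC6 the difference from control was 0.16 ± 0.07 (0.151), and in Dnd1-KD cells −0.05 ± 0.07 (0.614). In all 8 libraries the entry carries the names of both Tdg and Gm9855, annotated as a processed pseudogene at chr10:42054113-42055306. The span of the entry, chr10:82629838-82650494, lies at Tdg and does not cover that position. Whether fragments of Gm9855 are part of the value was not tested, so the share of Tdg is uncertain.

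Over the 9 genes, 6 were called in Dnd1-KD cells against control, 1 higher and 5 lower (20.7% and 15.5% of all units), with a median difference of −0.56 against 0.02 over all units tested. In CDGC1 against control 6 were called, 2 higher and 4 lower (23.5% and 27.0% of all units; median −0.22, all units −0.03). In CDGC6 against control 3 were called, 2 higher and 1 lower (8.43% and 10.2% of all units; median 0.05, all units −0.01). Between CDGC1 and CDGC6 7 were called, 1 higher and 6 lower (23.0% and 24.1% of all units; median −0.51, all units −0.02). The shares of members, 66.7%, 66.7%, 33.3% and 77.8%, stand beside the 36.2%, 50.5%, 18.6% and 47.1% of all units given above, and with 9 genes chosen by name no test was made of the difference. Leaving out 1 library moved the number of members called to between 3 (without control library 1) and 6 in Dnd1-KD cells, and to between 1 (without control library 2) and 4 in CDGC6. The number of members called in CDGC1, against control and against CDGC6, also fell when some of the compared libraries were left out. The 3 comparisons with control share its 2 libraries.

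The 3 genes with the profile most like that of each member over the 8 libraries were taken from 10107 candidates by the root mean square (RMS) difference of centred log2(FPKM + 1). Candidates were tested units of 1 symbol with no library at 0, without predicted and clone-named genes. Genes at 0 in a CDGC1 library, Zfp42 among them, were thus not compared. For Dnmt3l they were Tdh (0.33), a threonine dehydrogenase of mouse ES cells, Esrrb (0.38), a nuclear receptor of naive pluripotency, and Dppa4 (0.39). Tdh was at 140.8 and 112.2 FPKM in Dnd1-KD cells, 0.880 and 0.490 in CDGC1, 178.8 and 231.9 in CDGC6, and 233.6 and 244.9 in the control. Dppa4 was at 88.0 and 86.8 FPKM in Dnd1-KD cells, 0.317 and 0.657 in CDGC1, 85.6 and 159.8 in CDGC6, and 109.9 and 112.3 in the control. Both were under 1 FPKM in CDGC1 and far higher in the 6 other libraries.

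For Dnmt3b the nearest profiles were those of Tdgf1 (RMS 0.23), the NODAL co-receptor Cripto, Alox15 (0.24) and the glycolytic enzyme gene Pfkl (0.24). Tdgf1 was at 111.7 and 70.1 FPKM in Dnd1-KD cells, 376.4 and 439.9 in CDGC1, 463.6 and 469.9 in CDGC6, and 252.2 and 234 in the control, the same order of groups as Dnmt3b. For Tet2 they were Adap1 (0.10), Cobl (0.10) and Alox5ap (0.14), and for Tet1 Epas1 (0.15), Hmces (0.15), which binds abasic DNA, and Chrna9 (0.16). Cobl was at 15.9 and 13.0 FPKM in Dnd1-KD cells, 1.27 and 1.68 in CDGC1, 10.2 and 10.9 in CDGC6, and 17.2 and 17.1 in the control. Tdg was nearest to Plce1 (0.08), Dpp6 (0.09) and Fign (0.09), Uhrf1 to Phb (0.06), Eef1d (0.07) and Pgam1 (0.10), Dnmt3a to Ank3 (0.08), Fancf (0.08) and Hint2 (0.09), and Tet3 to Magi3 (0.04), Kansl3 (0.05) and Brap (0.05). Members of small span have many near profiles, so a small RMS is easier to reach for them.

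Partners of maintenance, a list of 11 genes all tested, gave 1 higher and 5 lower in Dnd1-KD cells against control, 2 and 5 in CDGC1, 2 and 1 in CDGC6, and 1 and 4 between the lines, with medians of −0.52, −0.49, −0.0048 and −0.28. Beside the counts of this and each later list stand the shares of all units. These were 20.7% higher and 15.5% lower in Dnd1-KD cells, and 23.5% and 27.0% in CDGC1. They were 8.43% and 10.2% in CDGC6, and 23.0% and 24.1% between the lines. No list was tested against these shares, and a count near them is no result on its list. The Dnd1-KD count was 3 without control library 1, and the CDGC6 count 1 without CDGC6 library 2 or either control library. Dppa3 (Stella), known to keep UHRF1 from chromatin in mouse oocytes, was at 16.3 and 16.8 FPKM in Dnd1-KD cells, 0.0572 and 0.0923 in CDGC1, 49.95 and 56.68 in CDGC6, and 21.5 and 21.0 in the control. It fell in CDGC1 (−4.37 ± 0.09, limma adjusted p = 1.76e-06) and rose in CDGC6 (1.29 ± 0.09, 0.000937). The Dnd1-KD difference passed too (−0.34 ± 0.09, 0.0274), and was lost without any 1 of the 4 libraries compared (0.0934 to 0.156). Usp7, a deubiquitinase that binds DNMT1 and UHRF1, was at 83.7 and 77.2 FPKM in Dnd1-KD cells, 40.8 and 40.7 in CDGC1, 102.2 and 101.7 in CDGC6, and 96.4 and 98.7 in the control, and fell in CDGC1 (−1.24 ± 0.06, 3.14e-05). Its Dnd1-KD difference (−0.28 ± 0.06, 0.0177) was lost without control library 1 or 2 or Dnd1-KD library 2 (0.0868 to 0.115). Pcna, the replication clamp, fell in Dnd1-KD cells (263.9 and 260.3 against 381.5 and 378.4 FPKM, −0.53 ± 0.06, 0.00209), as did Cdca7, which helps HELLS remodel nucleosomes (42.9 and 42.4 against 62.1 and 61.5 FPKM, −0.52 ± 0.06, 0.00263). Cdca7 rose in CDGC1 (69.2 and 74.5 FPKM, 0.21 ± 0.06, 0.0264) and CDGC6 (74.9 and 73.7 FPKM, 0.26 ± 0.06, 0.0338). The first of these calls was lost without CDGC1 library 2 or either control library (0.0766 to 0.139), and the second without any 1 of the CDGC6, control or Dnd1-KD libraries (0.0548 to 0.192).

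The list of regulators of de novo methylation, of 9 genes, gave 0 higher and 3 lower in Dnd1-KD cells, 2 and 3 in CDGC1, 0 and 0 in CDGC6, and 2 and 2 between the lines (medians −0.18, 0.01, −0.09 and 0.10). It also holds Trdmt1, an RNA methyltransferase and not such a regulator. Trdmt1 is counted among the 3 lower in Dnd1-KD cells and the 2 higher in CDGC1. Prdm14, which represses the Dnmt3 genes in mouse ES cells, was at 2.67 and 2.02 FPKM in Dnd1-KD cells, 0.0147 and 0 in CDGC1, 3.43 and 5.39 in CDGC6, and 3.69 and 3.77 in the control. It fell in CDGC1 (−2.23 ± 0.19, limma adjusted p = 0.000222). Nsd1, a histone H3 lysine methyltransferase whose mark guides DNMT3A, also fell there (8.65 and 7.45 against 35.1 and 32.7 FPKM, −1.95 ± 0.11, 5.08e-05). Lin28a, also one of the pluripotency markers, fell in Dnd1-KD cells (74.6 and 63.7 against 127.3 and 114.1 FPKM, −0.80 ± 0.13, 0.00640). It rose in CDGC1 (195.8 and 159.6 FPKM, 0.55 ± 0.13, 0.0127), a call lost without control library 2 (0.0742), and was at 151.7 and 160.6 FPKM in CDGC6 (0.37 ± 0.13, 0.0916). The Dnd1-KD count was 1 without control library 1 or Dnd1-KD library 2, and the CDGC1 count 3 without either control library. The CDGC6 count was 0 to 2 over the 20 alternatives (1 without either CDGC1 library), and 5 of the 9 had an unadjusted p under 0.05 there.

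Genes of protein families that read methylated DNA (7 of 8 tested) were listed by family, not by the binding of each protein. They gave 4 higher and 1 lower in Dnd1-KD cells, 1 and 2 in CDGC1, 0 and 3 in CDGC6, and 2 and 1 between the lines (medians 0.34, −0.13, −0.28 and −0.05). Mbd3, a subunit of the NuRD complex, was at 88.0 and 90.6 FPKM in Dnd1-KD cells, 76.2 and 75.9 in CDGC1, 99.3 and 113.7 in CDGC6, and 166.3 and 196.4 in the control. It fell in all 3 groups against control, by 1.01 ± 0.10, 1.24 ± 0.10 and 0.76 ± 0.10 on the log2 scale (limma adjusted p = 0.00188, 0.000203 and 0.00701). In Dnd1-KD cells the number called was 1 to 6 over the alternatives, against 5 here. It was 1 without either control library, 3 without Dnd1-KD library 1 and 2 without Dnd1-KD library 2. In CDGC6 it was 1 without either control library, and between the lines 1 without CDGC6 library 2.

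Genes that supply or curb the TET reaction (6 of 7 tested) gave 0 higher and 4 lower in Dnd1-KD cells, 3 and 2 in CDGC1, 1 and 1 in CDGC6, and 0 and 1 between the lines (medians −0.51, −0.02, 0.16 and 0.06). Idh2, a mitochondrial enzyme that makes the TET cosubstrate 2-oxoglutarate, was at 16.7 and 14.6 FPKM in Dnd1-KD cells, 45.6 and 51.6 in CDGC1, 49.6 and 47.8 in CDGC6, and 25.04 and 23.65 in the control. It rose in CDGC1 (0.97 ± 0.10, limma adjusted p = 0.000421) and CDGC6 (0.97 ± 0.10, 0.00260) and fell in Dnd1-KD cells (−0.61 ± 0.10, 0.00619), a call lost without control library 1 (0.0519). Without that library 1 gene of the list was called in each group against control. The CDGC1 count was 2 without control library 2 and 3 without CDGC1 library 1, the CDGC6 count 1 without control library 2, and that between the lines 2 without library 2 of either.

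The list of base excision repair and genes linked to demethylation (15 of 16 tested) gave 3 higher and 5 lower in Dnd1-KD cells, 0 and 8 in CDGC1, 1 and 3 in CDGC6, and 2 and 7 between the lines (medians −0.23, −0.36, −0.11 and −0.18). It holds 11 repair enzymes, all tested, and 5 genes of other function, the GADD45 genes and the cytidine deaminases, of which 4 were tested. Split in this way after the values were seen, the repair enzymes gave 1 higher and 5 lower in Dnd1-KD cells, 0 and 4 in CDGC1, 1 and 1 in CDGC6, and 2 and 4 between the lines (medians −0.55, −0.21, −0.04 and −0.12). The 4 others gave 2 higher and 0 lower in Dnd1-KD cells, 0 and 4 in CDGC1, 0 and 2 in CDGC6, and 0 and 3 between the lines. Gadd45g, a stress protein reported to take part in demethylation, was at 58.8 and 58.6 FPKM in Dnd1-KD cells, 1.69 and 0.743 in CDGC1, 6.32 and 8.89 in CDGC6, and 12.3 and 12.8 in the control. It rose in Dnd1-KD cells (2.14 ± 0.23, limma adjusted p = 0.00217) and fell in CDGC1 (−2.64 ± 0.23, 0.000245). Gadd45a fell in CDGC1 (−2.09 ± 0.12, 5.50e-05) and CDGC6 (−0.97 ± 0.12, 0.00574), and Parp1, the sensor of strand breaks, fell in Dnd1-KD cells (−0.63 ± 0.08, 0.00297) and CDGC1 (−0.49 ± 0.08, 0.00284). Parp1 rose in CDGC6 (160.3 and 160.5 against 129.3 and 128.7 FPKM, 0.31 ± 0.08, 0.0404), a call lost without any 1 of the 4 libraries compared (0.106 to 0.189). Nthl1, a DNA glycosylase, was listed at 0 in Dnd1-KD libraries 1 and 2 and at 12.2 to 16.2 FPKM in the 6 others. It is counted among the 5 lower in Dnd1-KD cells, and without it the median of the whole list there was −0.17. Whether its entry was absent or unnamed in these libraries was not tested. In CDGC1 the count of the whole list was 5 without either control library, and in CDGC6 it was 1 without any 1 of its own or the control libraries, 2 without either Dnd1-KD library and 7 without either CDGC1 library. That of the repair enzymes in CDGC6 was 0 without any 1 of the CDGC6 or control libraries and 1 without either Dnd1-KD library.

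In the S-adenosylmethionine cycle, which makes the methyl donor (9 genes, all tested), 1 was higher and 3 lower in Dnd1-KD cells, 3 and 0 in CDGC1, 0 and 0 in CDGC6, and 3 and 1 between the lines (medians −0.09, 0.09, −0.0022 and 0.22). Ahcy, which clears S-adenosylhomocysteine, an inhibitor of methyltransferases, was at 73.1 and 59.5 FPKM in Dnd1-KD cells, 201.9 and 181.7 in CDGC1, 142.4 and 150.3 in CDGC6, and 128.3 and 127.6 in the control. It fell in Dnd1-KD cells (−0.95 ± 0.11, limma adjusted p = 0.00262) and rose in CDGC1 (0.58 ± 0.11, 0.00563). In CDGC6 the count was 0 to 1 over the alternatives (1 without CDGC6 library 2), and 1 of the 9 had an unadjusted p under 0.05. In Dnd1-KD cells it was 1 without control library 1, control library 2 or Dnd1-KD library 2. It was 5 in CDGC1 without either CDGC6 library, and between the lines 1 without CDGC1 library 1 and 2 without either control library.

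Germline genes whose promoters are known in the mouse to be silenced by methylation were also listed (18 genes, 15 tested). Their RNA is not a measure of methylation. In CDGC1 against control 14 of the 15 were lower and none higher, beside 27.0% and 23.5% of all units. Against CDGC6 likewise 14 were lower, beside 24.1% of all units. Of the 15, 8 were listed at 0 in both CDGC1 libraries. The medians were −1.83 and −1.45, or −1.36 and −1.16 over the genes not at 0. In Dnd1-KD cells 5 were higher and 0 lower (median 0.10), and in CDGC6 0 were higher and 3 lower (−0.28). The Dnd1-KD and CDGC6 counts were 1 to 5 and 0 to 6 over the alternatives, with 1 in Dnd1-KD cells without control library 1, control library 2 or Dnd1-KD library 2 and 2 without Dnd1-KD library 1. In CDGC6 it was 0 without either control library, 1 without CDGC6 library 1 or either Dnd1-KD library, and 6 without CDGC6 library 2. The filter could be met by the groups that express a gene, so the 15 are not all members of the list. Their counts are thus partly set by the filter. Slc25a31, counted higher in Dnd1-KD cells, reached 1 FPKM in that group alone (1.14 and 1.44, against 0.888 and 0.756 in the control). The genes listed at 0 in CDGC1 passed through other groups alone, so the filter favoured a fall there.

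Ddx4, an RNA helicase of germ cells, was at 19.8 and 22.6 FPKM in Dnd1-KD cells, 0.0137 and 0.0221 in CDGC1, 9.62 and 11.8 in CDGC6, and 15.5 and 15.4 in the control, and fell in CDGC1 (−4.02 ± 0.12, limma adjusted p = 7.31e-06). Its smaller differences in Dnd1-KD cells (0.43 ± 0.12, 0.0346) and CDGC6 (−0.50 ± 0.12, 0.0379) passed, but the first was lost without any 1 of the 4 libraries compared (0.0537 to 0.17), and the second without CDGC6 library 1, either control or either Dnd1-KD library (0.052 to 0.179). Rpl10l, a ribosomal protein gene of male germ cells, was at 20.0 and 19.1 FPKM in Dnd1-KD cells, 0.0429 and 0 in CDGC1, 12.4 and 17.8 in CDGC6, and 22.1 and 22.9 in the control, and fell in CDGC1 as well (−4.52 ± 0.16, 1.09e-05). Sycp3, of the meiotic chromosome axis, was at 86.5 and 86.0 FPKM in Dnd1-KD cells, listed at 0 in both CDGC1 libraries, at 15.7 and 22.9 in CDGC6, and at 43.5 and 40.1 in the control, and rose in Dnd1-KD cells (1.03 ± 0.16, 0.00637). It fell in CDGC6 (−1.10 ± 0.16, 0.00994), a call lost without control library 1 or 2 (0.0738 and 0.0549). Mael, of the piRNA pathway, was listed at 0 in CDGC1 and at 6.41 to 7.51 FPKM in the 6 other libraries. Tdrkh, named after its values were seen as the tested gene not lower in CDGC1, was at 7.87 and 11.6 FPKM there against 7.01 and 6.11 in the control (0.49, 0.0597). Germ cell genes and the naive markers were thus low in the same 2 libraries, in which Dnmt3l and Tet2 were also low, and no part of one in the other was tested.

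**Figure D5:**
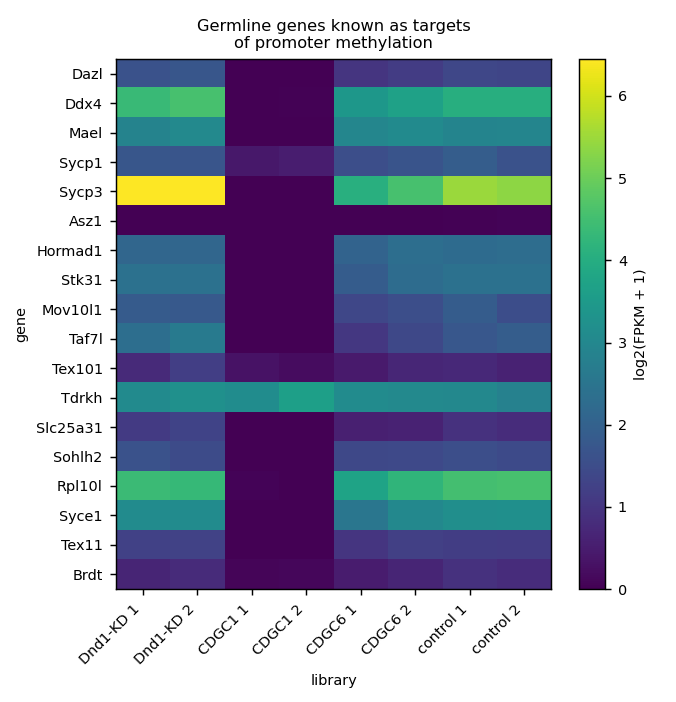
Level of the 18 germline genes (rows) in each library (columns), as log2(FPKM + 1) by colour, with groups from left to right as Dnd1-KD, CDGC1, CDGC6 and control. The CDGC1 columns are at or near 0 for Ddx4, Sycp3, Mael and Rpl10l, while Tdrkh is at 7.87 and 11.6 FPKM there.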

How the data were processed

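RNA-seq of 8 libraries was used, 2 for each of 4 groups taken from the titles. Per the labels, RNA was isolated with RNeasy, made into libraries with the TruSeq RNA v2 kit and sequenced on a HiSeq2500. The build mm10 and the tools Bowtie, TopHat2, Cuffdiff and Cufflinks are named, without versions or roles, in the submitters' processing notes. The deposited FPKM values are gene tables of Cufflinks, per the file headers, made by the authors for each library, with an interval for each value. Fragment numbers implied by those intervals are given as depth, and counts could not be recovered.

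Symbols joined in 1 entry of any table were treated as 1 unit, with FPKM summed over its entries, and small RNA genes were removed. Units that reached 1 FPKM in 2 or more libraries were tested, 11905 in all, and 661 of them hold several symbols. Values were compared as log2(FPKM + 1) with limma 3.58.1 in R 4.3.3 (group means of all 8 libraries in 1 fit, two-sided moderated tests with a variance trend), with Benjamini-Hochberg adjustment and a threshold of 0.05. A log2 difference on this scale understates the change of low genes. The script was tested on simulated data. No 2 libraries held more than 0.006% identical values.

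The genes and gene lists were chosen with earlier results of these data known. The text names all 9 genes, up to 4 genes per related list (those with the smallest p in any comparison) and the 3 nearest profiles of each gene whose group means span more than 1 log2 unit, which leaves out Dnmt1. Leukocyte markers were also summed, at 1051 to 1694 FPKM, nearly all of it Cd68. Ptprc, Lyz2, Csf1r and Itgam were each at 0.214 FPKM or less in every library, so the sum is not a measure of leukocytes. Alternatives were other pseudocounts, filters and scalings, other fits, the highest entry per gene, each library left out, and, added after seeing the data, failed intervals set to missing and units of 1 symbol only. Promoters and their sequences are RefSeq's (GRCm38.p6), and gene spans those of GENCODE vM21, on the build of the files. Tables were read with Python 3.11.15, pandas 2.3.3 and numpy 2.4.6, and drawn with matplotlib 3.10.9.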

Additional observations from a re-analysis of the deposited data

Results flagged for a closer look

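The change from control differed between the derived lines for 7 of the 9 genes, by the test of CDGC1 against CDGC6 in the limma fit, which is the difference of both changes from the same control. It was −7.11 in CDGC1 and −0.82 in CDGC6 for Dnmt3l (difference −6.29 ± 0.13), −2.71 and −0.55 for Tet2 (−2.16 ± 0.15), and −1.85 and −0.26 for Tet1 (−1.59 ± 0.14). For Dnmt3b it was 0.42 and 1.09 (−0.68 ± 0.16), for Dnmt3a 0.35 and 0.86 (−0.51 ± 0.10), and for Dnmt1 −0.34 and 0.07 (−0.42 ± 0.10). For Tdg, in an entry that also carries the name of a pseudogene, it was 1.09 and 0.16 (0.93 ± 0.07). Only Dnmt1 had opposite signs in the lines, and its CDGC6 value was not called. These 7 are listed because they were called. They are 77.8% of the 9 genes, beside 47.1% of all units, and each line has 2 libraries.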

How the results depend on the processing

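Of the 22 called differences of the 9 genes, 13 kept their direction and their call under all 20 alternatives that could be computed, among them every call of Dnmt3l, Tet1, Tet2 and Tdg in CDGC1 and those of Dnmt3b, Uhrf1 and Tet3 in Dnd1-KD cells. The filter of 5 FPKM leaves no value for Tet3. Leaving out 1 library gave 1368 to 4916 units called in Dnd1-KD cells against control (4311 with all) and 407 to 2848 in CDGC6 against control (2220 with all), and 3 to 6 and 1 to 4 of the 9 genes. The control libraries moved these counts most, to 1368 without control library 1 and 1631 without control library 2 in Dnd1-KD cells, and to 407 and 492 without them in CDGC6. Without Dnd1-KD library 2 it was 1742 in Dnd1-KD cells, and without CDGC6 library 1 or 2 it was 1400 and 1276 in CDGC6. Values that changed sign were not called. With quantile normalization Tdg in Dnd1-KD cells was 0.0349 and Tet3 in CDGC1 0.0012. With 1 library left out, Tet2 in Dnd1-KD cells ranged over −0.28 to 0.0101, Dnmt1 in CDGC6 over −0.0318 to 0.18, Uhrf1 in CDGC6 over −0.0025 to 0.11, and Tet3 in CDGC1 against CDGC6 over −0.0564 to 0.14, and the cause was not tested. The replicate numbers were not shown to pair libraries (r of the differences between library 1 and 2 from −0.0766 to 0.144). With the replicate number as a block, 3924, 5782, 1657 and 5366 units were called in Dnd1-KD, CDGC1 and CDGC6 against control and CDGC1 against CDGC6, and 6, 6, 3 and 7 of the 9 genes. Of the 135 called differences of related genes, the 72 of the genes named by the rule were followed one by one, and of these 44 held throughout, 28 were lost under at least 1 alternative and 0 changed sign. The depth limits Dnmt3l and Tet2 in CDGC1 most, with under 100 implied fragments.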

Other observations

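Within a group, the authors' intervals of the 2 libraries overlapped for 18 of the 34 gene and group pairs with usable intervals, and did not for 16, so that the spread between libraries was in those pairs beyond what the intervals cover. Fragments of unnamed entries also lay within the spans of some of the 9 genes, and these were not added to their values. Zfp57, a KRAB zinc finger protein that keeps imprints methylated and a member of the maintenance list outside the rule for named genes, was chosen after its values were seen. It was at 84.7 and 68.8 FPKM in Dnd1-KD cells, 13.8 and 26.7 in CDGC1, 65.3 and 90.9 in CDGC6, and 114.3 and 129.9 in the control. Trdmt1, an RNA methyltransferase of the DNMT fold once named Dnmt2, likewise chosen, was at 2.105 and 1.496 FPKM in Dnd1-KD cells, 6.05 and 4.34 in CDGC1, 3.54 and 3.16 in CDGC6, and 3.29 and 3.39 in the control. In both genes the CDGC1 libraries lay apart from the other 6, lower for Zfp57 and higher for Trdmt1.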
